A study of Arabidopsis thaliana with 11 samples.

Results

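The comparison concerned where maize CENH3 and the plant's own CENH3 sit in the genome of Arabidopsis thaliana, peak by peak. Members were all peaks on chromosomes 1 to 5 in the 2 ZmCENH3 lists and the 2 AtCENH3 lists, which together held 1379 of the 1981 nuclear peaks of the 6 lists of the series. ZmCENH3 replicates 1 and 2 had 401 and 408 peaks, and AtCENH3 replicates 1 and 2 had 315 and 255. The ZmCENH3 libraries came from Columbia seedlings homozygous for the cenh3-1 mutation that carried the CENH3 gene of maize (Z. mays), precipitated with an antibody named ZmCENH3. The AtCENH3 libraries came from wild-type Columbia seedlings, precipitated with an antibody named AtCENH3. Both kinds of seedling were grown for 7 to 10 days in shaken liquid medium, nuclei were digested with micrococcal nuclease, and library fragments of 200 to 400 bp were selected. The labels give neither the promoter of the maize transgene nor the number of transgenic lines, and a seedling mixes dividing and non-dividing cells. Genotype, antibody and control differ together between the 2 variants, so their parts in any difference cannot be told apart, nor can fewer cells with CENH3 at a place and less CENH3 per cell.

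CENH3 is the histone H3 variant that takes the place of H3 in nucleosomes of the centromere, where it forms the base on which the kinetochore is built. The tail and the first loop of its histone fold differ widely between plants, while centromeric DNA in Arabidopsis is made up of a tandem satellite repeat with transposons in and around it. The question of the study, as its title states it, was whether centromeres stay in place when the CENH3 protein is a very different one. Micrococcal nuclease cuts between nucleosomes, so that a peak of nucleosome-sized DNA has a summit (the base with the highest coverage) and 2 edges that can be compared between variants.

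The ZmCENH3 libraries held 13886693 and 15798998 tags and the AtCENH3 libraries 9016364 and 13280742. Each variant had 1 control for both of its lists, of 9825449 tags for ZmCENH3 and 9239707 for AtCENH3. The series holds an antibody control for each variant. It holds input DNA separately, and none of that came from seedlings with maize CENH3. After the peak caller's scaling to the smaller of ChIP and control, the libraries stood at 9.83 and 9.83 M tags (M, 1e+06) for ZmCENH3 and at 9.02 and 9.24 M for AtCENH3. The pile-up of a peak is the coverage at its summit on that scale. Its median was 65.8 and 68.7 tags in ZmCENH3 and 47.0 and 54.96 tags in AtCENH3, and the highest peak reached 867427 and 859795 tags against 783952 and 641813. Peaks were short, with median lengths of 299 and 326 bp in ZmCENH3 and of 274 and 297 bp in AtCENH3, and a minimum of 165 bp set by the tag extension. The tag size that the peak caller determined was 147 and 156 bp in ZmCENH3 and 136 and 130 bp in AtCENH3. It thus differed with the variant, and its part in the differences below was not tested. The control coverage behind a peak, solved from the deposited fold enrichment, was higher for ZmCENH3, with medians of 15.5 and 16 tags against 6.83 and 9.0 for AtCENH3. It is the background that the peak caller used, which need not be the control's coverage at the summit base. The labels do not say that replicates were separate cultures, so p-values measure only the spread between these libraries. With 2 libraries a variant, the smallest p of the permutation tests is 0.333, and none of them can pass 0.05.

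Overlapping peaks of the 4 lists merged into 505 regions, given below by their 1-based coordinates in the build TAIR10. Of these, 157 had exactly 1 peak in each of the 4 libraries and are called shared loci here, and 33 had peaks in all 4 libraries with more than 1 in some. Both ZmCENH3 libraries without any AtCENH3 peak made up 103 regions, and both AtCENH3 libraries without any ZmCENH3 peak made up 14. A single ZmCENH3 library accounted for 96 regions and a single AtCENH3 library for 47. In the other regions both variants had peaks but not all libraries did: 42 with both ZmCENH3 and 1 AtCENH3 library, 7 with 1 ZmCENH3 and both AtCENH3 libraries, and 6 with 1 of each. Chromosome 5 held 205 of the regions, 54 of the shared loci and 50 of the 103 regions of ZmCENH3 alone.

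Summits of the maize protein lay close to those of the native protein, at distances like those between replicates. Peaks were matched where each overlapped only the other. Between ZmCENH3 replicate 1 and AtCENH3 replicates 1 and 2, the median distance of matched summits was 12 bp over 218 peaks and 9 bp over 189. Between ZmCENH3 replicate 2 and the same AtCENH3 lists it was 12 bp over 204 peaks and 11 bp over 185. The ZmCENH3 replicates differed from each other by a median of 11 bp over 316 peaks and the AtCENH3 replicates by 10 bp over 216. The mean of the medians between variants, 11 bp, exceeded that between replicates, 10.5 bp, by 0.5 bp (exact permutation test over the 3 pairings of the libraries, one-sided, p = 0.667). The difference turned to -1.0 bp without AtCENH3 replicate 1 and to -0.5 bp when matched peaks had to overlap by 50% of each. The signed median was 0 bp in 3 of the 4 pairs and 0.5 bp in the other, with no net shift along the chromosome.

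The upper part of the distribution set the variants further apart than the AtCENH3 replicates and about as far apart as the ZmCENH3 replicates. Summits within 10 bp made up 45.1% to 53.4% of matched peaks between variants, against 49.4% in the ZmCENH3 replicates and 52.3% in the AtCENH3 replicates. Within 50 bp they made up 75.7% to 83.6% between variants, 77.8% for the ZmCENH3 replicates and 87.0% for the AtCENH3 replicates. Summits more than 165 bp apart, the tag extension, numbered 12 to 20 per pair of variants (6.35% to 9.17%), 23 for the ZmCENH3 replicates (7.28%) and 8 for the AtCENH3 replicates (3.70%). The mean distance was 46.9 to 62.0 bp between variants, 42.6 bp between ZmCENH3 replicates and 28.8 bp between AtCENH3 replicates. Its excess over replicates was 16.4 bp (exact permutation test, one-sided, p = 0.333), and that of peak midpoints in place of summits was 7.06 bp with the same p. Short peaks under 330 bp had median distances of 9 to 11.5 bp between variants and of 8.5 and 9 bp between replicates of ZmCENH3 and AtCENH3. For longer peaks these were 11 to 19 bp between variants and 13 and 10 bp between replicates.

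**Figure D1:**
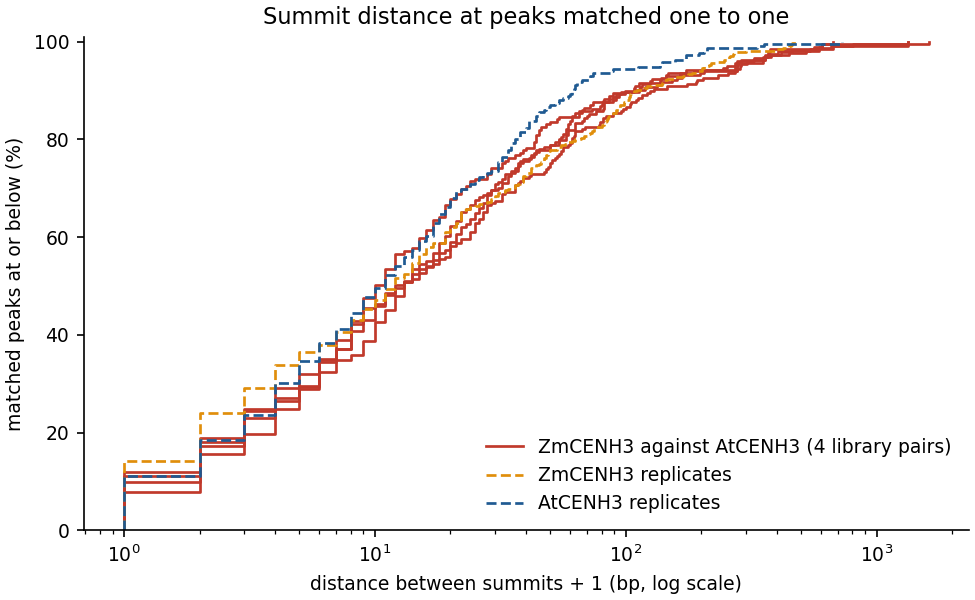
Cumulative share of matched peaks (y axis, percent) by distance between their summits plus 1 (x axis, bp, log scale). The 4 solid lines, ZmCENH3 against AtCENH3, run with the 2 dashed lines of the replicates up to about the median of 9 to 12 bp, and further up lie mostly below the AtCENH3 replicates.

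At the shared loci, height went with precision. The distance between variants here is that between the means of 2 summits, whereas that between replicates is between single summits. Means scatter less than single summits, so the 2 measures are not alike. The 53 loci with the highest mean pile-up, from 576 to 782675 tags, had a median summit distance between variants of 3.5 bp, where the ZmCENH3 replicates differed by 1 bp and the AtCENH3 replicates by 2 bp. The 51 loci in the middle, from 67.6 to 536 tags, had 9.5 bp, against 9 and 14 bp in the ZmCENH3 and AtCENH3 replicates. The 53 lowest, from 26.0 to 67.0 tags, had 20.5 bp, against 14 and 20 bp. All 4 summits fell within 10 bp of each other at 48 of the 157 shared loci and within 50 bp at 110.

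The 2 ZmCENH3 summits lay on 1 side of both AtCENH3 summits at 58 shared loci (36.9% of those tested). Nothing is read from this share, since with 2 libraries against 2 the smallest exact permutation p for a single locus is 0.333, and the displacements below are a description. In 18 of the 58 the variants' mean summits stood at most 10 bp apart, in 16 more than 50 bp and in 7 more than 165 bp, and ZmCENH3 lay at the higher coordinate in 35. The largest displacement was on chromosome 1 at 16515963 to 16517881, in the pseudogene AT1G43745. ZmCENH3 summits were at 16517578 and 16517577 and AtCENH3 summits at 16516244 and 16516972, a difference of means of 969.5 bp, but the AtCENH3 replicates themselves differed by 728 bp. On chromosome 5 at 11726103 to 11729861 ZmCENH3 summits were at 11729189 and 11729270 and both AtCENH3 summits at 11728600, a displacement of 629.5 bp. Lengths there were 3751 and 3759 bp in ZmCENH3 and 3715 and 3713 bp in AtCENH3, so that a nearly equal peak had its highest base elsewhere.

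Chromosome 2 held 2 such peaks in the same neighbourhood, both displaced to lower coordinates. At 3626845 to 3627482 ZmCENH3 summits were at 3626963 and 3626969, against 3627341 and 3627338 for AtCENH3, a displacement of -373.5 bp with pile-ups of 43755 and 45382 tags against 41040 and 41221. At 3617966 to 3620131, in the protein-coding gene AT2G08986, ZmCENH3 summits were at 3619535 and 3619536, against 3619894 in both AtCENH3 libraries, a displacement of -358.5 bp. In both, the displacement was far larger than the few bp between replicates of a variant. The fifth, on chromosome 5 at 11724191 to 11724605, had both ZmCENH3 summits at 11724492 and AtCENH3 summits at 11724220 and 11724212. Its lengths were 401 and 397 bp in ZmCENH3 and 402 and 415 bp in AtCENH3. All 5 displacements were larger than the replicate differences at the same locus, that in AT1G43745 by the smallest factor. The choice of the largest displacements among loci with the variants' summits apart favours this.

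Peaks were on average longer with maize CENH3, and the gain lay on chromosomes 4 and 5. Median length over the 157 shared loci was 355 and 356 bp in ZmCENH3 and 317 and 319 bp in AtCENH3. Mean log2 length was 8.64 ± 0.017 in ZmCENH3 and 8.49 ± 0.032 in AtCENH3 (SD, n = 2 each), a difference of 0.15 (exact permutation test over libraries, two-sided, p = 0.333). The median signed difference over loci, in which longer and shorter loci offset each other, was smaller, 0.05 on the log2 scale. Without its sign, the median difference between the variants' means was 0.135 on that scale. Median differences between single replicates, also without sign, were 0.035 in ZmCENH3 and 0.050 in AtCENH3. The mean log2 difference was 0.00029 over the 20 loci of chromosome 1, 0.0029 over the 25 of chromosome 2 and 0.036 over the 11 of chromosome 3. It was 0.22 over the 47 loci of chromosome 4 and 0.23 over the 54 of chromosome 5.

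Both ZmCENH3 peaks were longer than both AtCENH3 peaks at 73 shared loci (46.5%) and shorter at 38 (24.2%). Of the 157, 30 (19.1%) were called longer and 7 (4.46%) shorter by limma at an adjusted p under 0.05 with Benjamini-Hochberg adjustment, and 63 had an unadjusted p under 0.05. Chromosome 4 held 19 of those called longer, chromosome 5 held 8 and each other chromosome 1. Those called shorter were on chromosomes 1 (1), 2 (3) and 3 (3). Limma called 0 loci without ZmCENH3 replicate 1 and 0 without ZmCENH3 replicate 2, 16 without AtCENH3 replicate 2 and 39 without AtCENH3 replicate 1. Without the chromosome 4 stretch described further on, 15 longer and 7 shorter loci were called. In matched pairs of lists, ZmCENH3 peaks extended by a median of 1 to 6 bp beyond the left edge and 3 to 7 bp beyond the right edge of the AtCENH3 peak, against -1 to 0 bp between replicates. Tag size was also larger in ZmCENH3, and its part in these edges was not tested.

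The widest gain was on chromosome 5 at 11329295 to 11330190, in the pseudogene AT5G29975. The peak measured 707 and 896 bp in ZmCENH3 and 178 and 174 bp in AtCENH3, a log2 difference of 2.18 ± 0.15 (limma SE, adjusted p = 0.0167). Most of the added length lay on the left, where the peak began at 11329479 and 11329295 in ZmCENH3 and at 11329927 and 11329921 in AtCENH3, while it ended at 11330185 and 11330190 against 11330104 and 11330094. On chromosome 4 at 3967218 to 3967719 the lengths were 501 and 502 bp in ZmCENH3 and 213 and 221 bp in AtCENH3 (log2 difference 1.21 ± 0.025, limma SE, adjusted p = 0.00231). The difference was 1.21 also without either ZmCENH3 replicate, when the call was lost. There the left edges stood at 3967218 in both ZmCENH3 lists and at 3967228 in both AtCENH3 lists, and the peak was lengthened at its right end, to 3967718 and 3967719 against 3967440 and 3967448. On chromosome 4 at 3838670 to 3839285 the lengths were 610 and 610 bp in ZmCENH3 and 319 and 255 bp in AtCENH3 (1.10 ± 0.14, limma SE, adjusted p = 0.0346).

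Loci with the next largest differences did not pass the test. The peak on chromosome 3 at 13652275 to 13652897 measured 596 and 623 bp in ZmCENH3 and 348 and 246 bp in AtCENH3 (limma adjusted p = 0.0693). On chromosome 2 at 19165 to 19596, in the pseudogene AT2G01026 far out on the short arm, lengths were 420 and 432 bp in ZmCENH3 and 197 and 259 bp in AtCENH3 (limma adjusted p = 0.0614). In both, the ranges of the variants did not overlap.

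Shorter peaks with maize CENH3 occurred too. On chromosome 2 at 4187657 to 4188335 lengths were 395 and 356 bp in ZmCENH3 and 679 and 655 bp in AtCENH3 (log2 difference -0.83 ± 0.069, limma SE, adjusted p = 0.0191). The variants' mean summits differed by only 4.5 bp. Control coverage behind the peak was 35.0 tags in both ZmCENH3 lists and 5.85 and 5.00 in the AtCENH3 lists. On chromosome 3 at 13191369 to 13191955 they were 299 and 295 bp in ZmCENH3 and 561 and 475 bp in AtCENH3 (-0.80 ± 0.10, adjusted p = 0.0346 by limma). On chromosome 5 at 12149966 to 12150334, in the pseudogene AT5G32517, they were 211 and 298 bp in ZmCENH3 and 367 and 356 bp in AtCENH3, which did not pass (limma adjusted p = 0.203).

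Peak heights of the variants ranked the shared loci in nearly the same order, but loci departed from it beyond replicate error. Over the 157 loci, which share libraries and controls, Spearman's rho of pile-up was 0.931 to 0.940 between ZmCENH3 and AtCENH3 libraries, 0.987 between the ZmCENH3 replicates and 0.971 between the AtCENH3 replicates. Median pile-up was 155 and 142 tags in ZmCENH3 and 90 and 82.8 tags in AtCENH3, and per M scaled tags the median log2 difference was 0.79. Control coverage behind the same peaks was 33.0 and 34.0 tags for ZmCENH3 and 10.7 and 12 for AtCENH3. Fold enrichment was therefore lower in ZmCENH3, 5.51 and 5.66 against 6.71 and 6.23. The difference per M was 0.88 on the log2 scale at the 53 lowest loci, 0.86 at the middle 51 and 0.36 at the 53 highest.

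Because of the shift of 0.79, log2 pile-ups were centred on each library's own median over the 157 loci, and changes are given relative to these library medians. The shift between library medians is not the same as the median difference of 0.79, so the median locus need not be unchanged on this scale. The locus on chromosome 4 at 3985965 to 3986263, for instance, stood at 2.27 per M and at 1.60 relative to the library medians. By limma, 57 loci (36.3%) rose and 39 (24.8%) fell at an adjusted p under 0.05, and 100 had an unadjusted p under 0.05. The calls rest on an SE that limma set equal for all loci, not on the spread at each locus. Without that centring 112 were higher and 6 lower. Of the 57 that rose, 31 were on chromosome 4 and 14 on chromosome 5, and of the 39 that fell 11 were on chromosome 2 and 11 on chromosome 5. The number that rose was 34 without ZmCENH3 replicate 1, 32 without ZmCENH3 replicate 2 and 37 without AtCENH3 replicate 1. Without the chromosome 4 stretch 18 rose and 53 fell relative to the library medians of the loci left. The reference itself moved then. The locus on chromosome 1 at 14509481 to 14509692 went from -1.20 to -1.37, though its tags were unchanged. The 2 sets of counts are therefore set against different references, and no turn in the balance is read from them. With a variance trend in limma 43 rose and 38 fell. Differences in length and in pile-up went together weakly, with Spearman's rho of 0.44 and Pearson's r of 0.29 over the 157 loci, which share the same 4 libraries and controls.

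**Figure D2:**
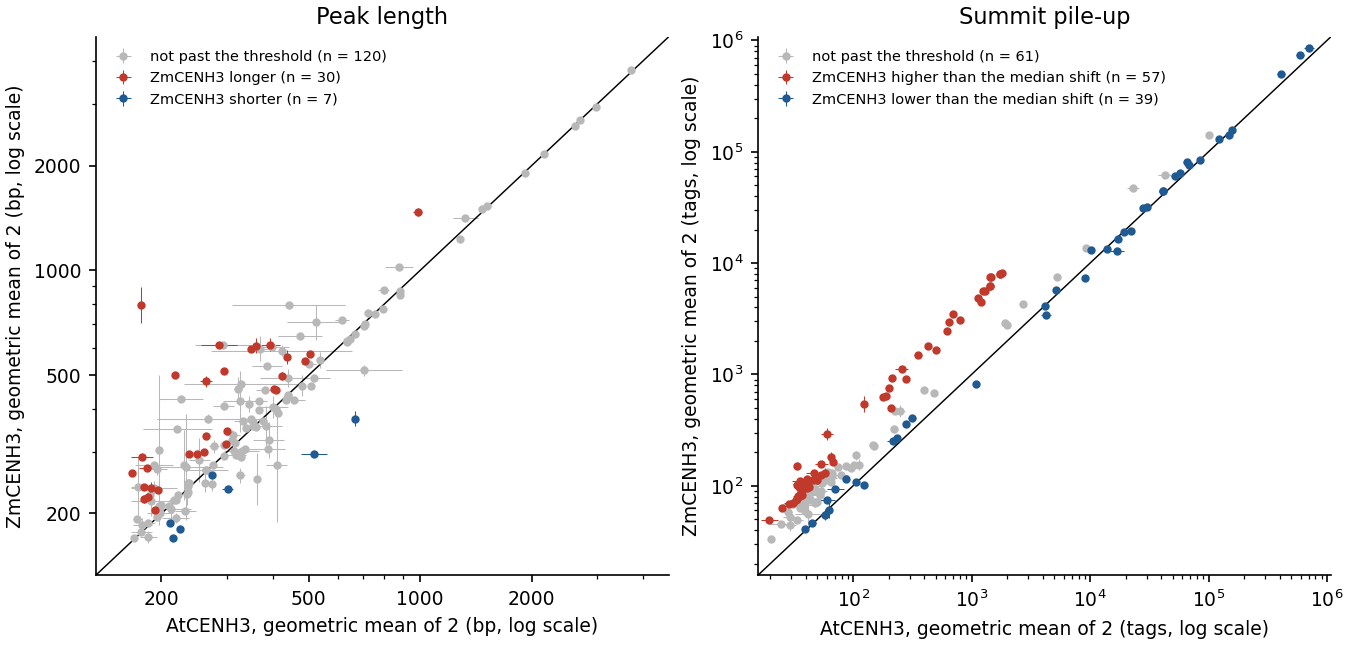
ZmCENH3 against AtCENH3 at the 157 shared loci, as geometric means of 2 libraries with whiskers to the values of the 2 libraries, for peak length (left, bp) and summit pile-up (right, tags), all axes logarithmic, with the line of equality. Colours mark loci past an adjusted p of 0.05 by limma, 30 longer and 7 shorter on the left, 57 higher and 39 lower than the shift between library medians on the right.

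The 3 loci with the greatest rise were neighbours on chromosome 4. At 3985965 to 3986263 the pile-up was 7491 and 7397 tags in ZmCENH3 and 1418 and 1450 in AtCENH3, a log2 difference of 1.60 relative to the library medians (limma adjusted p = 9.94e-17). At 3972531 to 3972833 it was 7453 and 7482 tags in ZmCENH3 and 1481 and 1447 in AtCENH3 (relative log2 difference 1.57, limma adjusted p = 1.52e-16). At 3977622 to 3978176 it was 3450 and 3464 tags in ZmCENH3 and 692 and 709 in AtCENH3 (1.52, limma adjusted p = 8.03e-16), with all 4 summits at base 3977825. The variants did not overlap at any of the 3. Limma gave every locus the same SE of 0.168. The p-values therefore rest on a spread common to all loci, not on the libraries at each locus, and their size is not read as evidence. With 1 library left out, and against the library medians of the loci then used, the differences ran from 1.32 to 1.53 at the first locus. They ran from 1.33 to 1.47 at the second and from 1.24 to 1.45 at the third.

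The 3 loci with the greatest fall were spread over 3 chromosomes and were lower in ZmCENH3 also in tags. On chromosome 1 at 14509481 to 14509692 the pile-up was 854 and 786 tags in ZmCENH3 and 1037 and 1162 in AtCENH3 (relative log2 difference -1.202, limma adjusted p = 4.84e-11). On chromosome 3 at 13587601 to 13587824 it was 12286 and 13533 tags in ZmCENH3 and 14677 and 19371 in AtCENH3 (-1.17, limma adjusted p = 1.67e-10). On chromosome 5 at 11706891 to 11707127 it was 3412 and 3388 tags in ZmCENH3 and 3883 and 4709 in AtCENH3 (-1.11, limma adjusted p = 1.06e-09). These p-values too rest on the SE common to all loci, and their size is not read as evidence. Peak lengths at these 3 loci were nearly equal over the 4 libraries, for instance 209 and 212 bp in ZmCENH3 and 209 and 209 bp in AtCENH3 on chromosome 1, and control coverage was higher for ZmCENH3, for instance 3102 and 3043 tags against 1387 and 1421.5 on chromosome 3.

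Native peaks were joined by a maize peak more often than they were split. Of ZmCENH3 peaks, 17 and 17 in replicate 1 and 22 and 18 in replicate 2 covered 2 or more peaks of AtCENH3 replicates 1 and 2, 4.24% to 5.39% of the list. Conversely 3 to 5 AtCENH3 peaks covered 2 or more ZmCENH3 peaks, 0.95% to 1.96%. Between replicates the share was 1.57% to 3.68%. The joined share exceeded the replicate mean of 2.37% by 2.21 percentage points and the split share lay 1.11 points below it. The exact permutation test over pairings averaged both directions, so the 2 shares have 1 common p (one-sided, p = 0.333). It tests neither share alone. With all lists cut to the 255 best peaks the joined excess was 3.92 points, and without AtCENH3 replicate 1 it was 1.49.

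**Figure D3:**
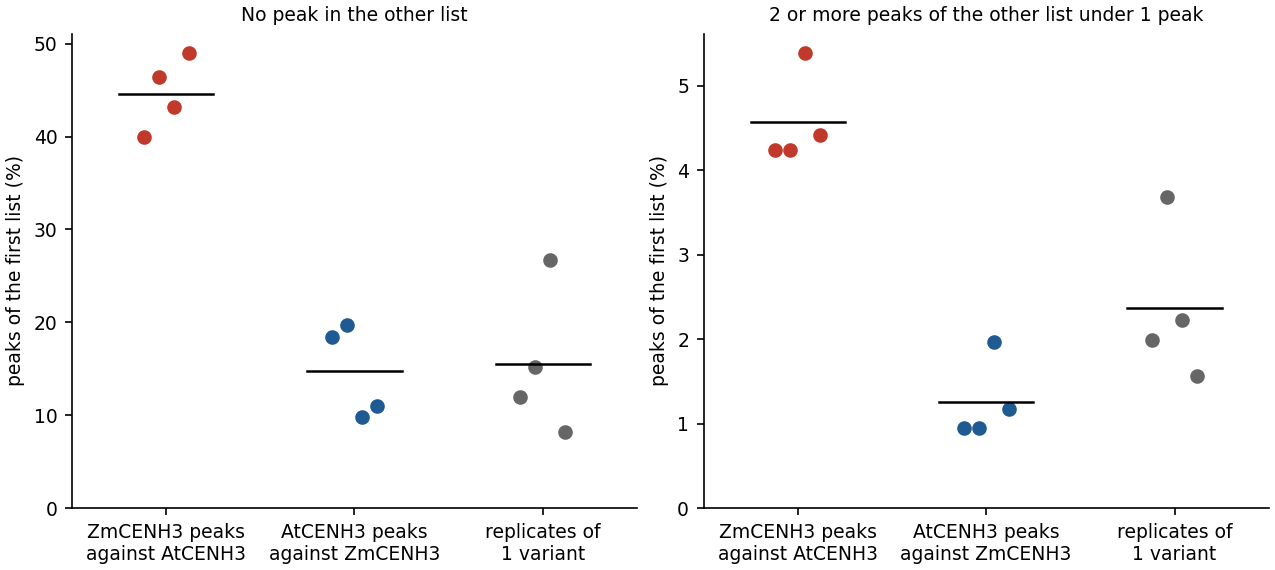
Share of the peaks of a list (y axes, percent) with no overlapping peak in the other list (left) and with 2 or more peaks of the other list under 1 peak (right). Points are ordered pairs of lists and bars their means, 44.6% against 14.7% and 15.5% on the left and 4.57% against 1.26% and 2.37% on the right for ZmCENH3 peaks against AtCENH3, AtCENH3 peaks against ZmCENH3 and replicates.

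In 10 regions a peak of each ZmCENH3 list joined 2 or more peaks of each AtCENH3 list, whose gaps summed to 142 to 780 bp. The longest lay on chromosome 1 at 15081992 to 15086105, in the protein-coding gene AT1G40104. ZmCENH3 had 1 peak there of 4040 and 4045 bp and AtCENH3 had 3 and 4 peaks, with gaps of 342 and 469 bp in all, at like heights (12814 and 14638 tags in ZmCENH3, 12443 and 14093 in AtCENH3). On chromosome 5 at 11818988 to 11821048, over the pseudogenes AT5G32125 and AT5G32143, ZmCENH3 had 1 peak of 1785 and 2061 bp. AtCENH3 had 2 there in each library, with 916 and 823 bp in all and gaps of 214 and 239 bp, and its highest pile-up was 63 and 67.5 tags against 131 and 144 in ZmCENH3. Here the called length grew well beyond the gaps, while in AT1G40104, where the AtCENH3 peaks held 3761 and 3595 bp, it grew by less than the gaps.

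Of the other regions, that on chromosome 4 at 3871368 to 3873003, over the pseudogenes AT4G06664 and AT4G06666, had 2 and 1 ZmCENH3 peaks with 1423 and 1622 bp. AtCENH3 had 3 peaks there in each library, with 863 and 717 bp. On chromosome 2 at 3620646 to 3622085, in AT2G08986 next to a locus with a displaced summit, 1 ZmCENH3 peak of 1236 and 1243 bp stood where AtCENH3 had 2 peaks with 1256 and 1272 bp, so that the gap was closed without a gain in length. On chromosome 5 at 11838811 to 11840459 the called length was 1555 and 1647 bp in ZmCENH3 and 1505 and 1454 bp in AtCENH3. On chromosome 1 at 16524901 to 16525962, in the pseudogene AT1G43755, it was 1048 and 1040 bp in ZmCENH3 and 877 and 838 bp in AtCENH3. The 4 remaining regions were 684 to 873 bp long.

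Splitting in both ZmCENH3 lists of a native peak was seen in 2 regions, both on chromosome 5 and close together. At 11322010 to 11323372 ZmCENH3 had 2 peaks in each library, with gaps of 179 and 165 bp, and AtCENH3 had 1 of 1276 and 1254 bp. At 11327097 to 11328867, in AT5G29975, ZmCENH3 had 2 peaks in each library with 1548 and 1608 bp, and AtCENH3 had 1 peak in replicate 1 and 2 in replicate 2 with 1666 and 1467 bp. The second was therefore broken in 1 AtCENH3 library too, at another base. It lies beside the peak in the same pseudogene that gained the most length.

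ZmCENH3 had many peaks without a native counterpart, whereas AtCENH3 peaks lacked a maize counterpart about as often as replicates lacked each other. Of ZmCENH3 replicate 1 peaks, 160 (39.9%) met no peak of AtCENH3 replicate 1 and 186 (46.4%) none of AtCENH3 replicate 2. For ZmCENH3 replicate 2 these were 176 (43.1%) and 200 (49.0%). Of AtCENH3 peaks, 18.4% and 19.7% in replicate 1 and 9.80% and 10.98% in replicate 2 met no peak of ZmCENH3 replicates 1 and 2. Between replicates the shares were 11.97% and 15.2% in ZmCENH3 and 26.7% and 8.24% in AtCENH3. The mean share of unmatched ZmCENH3 peaks, 44.6%, exceeded the replicate mean of 15.5% by 29.1 percentage points, and that of unmatched AtCENH3 peaks, 14.7%, lay 0.80 points below it. The exact permutation test over pairings averaged both directions, so the 2 shares have 1 common p (one-sided, p = 0.333). It tests neither share alone.

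List length bore on both shares. With every list cut to its 255 best peaks by q-value, the excess of unmatched ZmCENH3 peaks was 12.9 points and that of unmatched AtCENH3 peaks 6.86 points. The AtCENH3 excess also turned positive without chromosome 5 (1.497 points), without AtCENH3 replicate 2 (5.46 points) and with an overlap of 50% of each peak (10.4 points). Unmatched ZmCENH3 peaks were low and short, with median pile-ups of 39.8 to 41.8 tags against 107 to 132 tags for matched ones in the 4 pairs of lists. Their median lengths were 254.5 to 285 bp against 363 to 411 bp.

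Unmatched maize peaks lay a few kb from the nearest native peak, in 3 of 4 pairs of lists further than any replicates' unmatched peaks, but not once the lists had equal lengths. The median distance from edge to edge was 2469.5 and 4447.5 bp for ZmCENH3 replicate 1 to AtCENH3 replicates 1 and 2 and 3282.5 and 8058 bp for ZmCENH3 replicate 2. Between replicates it was 1511.5 and 1263 bp in ZmCENH3 and 3020 and 1437 bp in AtCENH3. The mean log2 distance was higher by 1.28 between variants (exact permutation test over pairings with both directions averaged, one-sided, p = 0.333). That excess was 0.0064 with lists cut to 255 peaks, 0.076 without chromosome 5, 0.71 among peaks with a −log10 q of 10 or more and 2.84 with an overlap of 50% of each peak. It was 0.67 without ZmCENH3 replicate 2 and 2.12 without AtCENH3 replicate 1. Within 1 kb lay 21.0% to 36.3% of unmatched ZmCENH3 peaks, against 41.7% and 46.8% between ZmCENH3 replicates and 27.4% and 47.6% between AtCENH3 replicates.

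**Figure D4:**
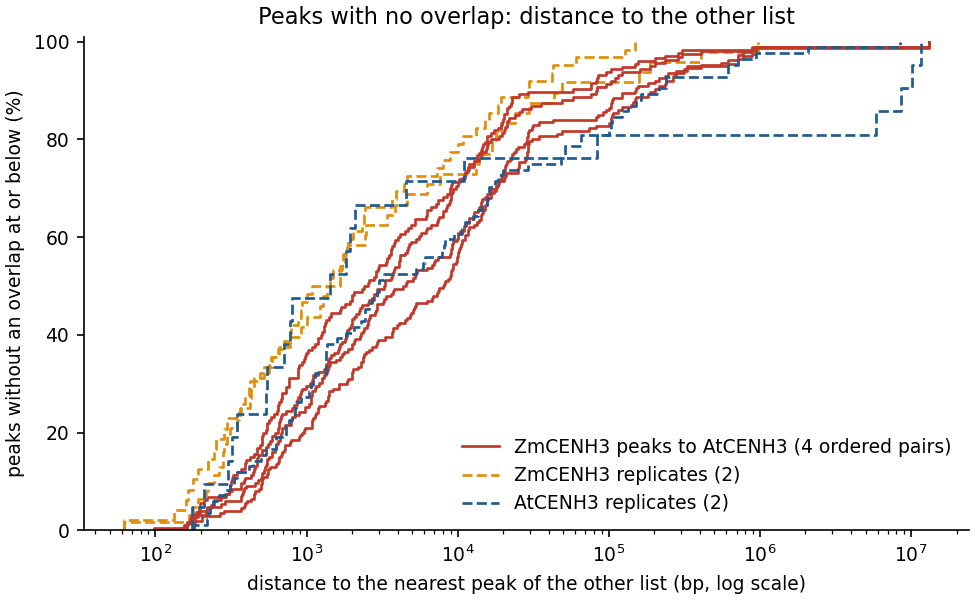
Cumulative share of peaks with no overlap in the other list (y axis, percent) by distance to its nearest peak on the same chromosome (x axis, bp, log scale). The 4 solid lines, ZmCENH3 to AtCENH3, reach 50% at 2469.5 to 8058 bp and the 4 dashed lines of replicates at 1263 to 3020 bp, with 1 AtCENH3 line among the solid ones.

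The 103 regions called in both ZmCENH3 libraries and in neither AtCENH3 library were placed among the native peaks for the most part. They covered 44743 bp in all, with a median length of 340 bp and a range of 171 to 2445 bp. Their median distance to a native peak of either library was 1997 bp, with quartiles of 584.5 and 10513.5 bp. Only 4 lay within 165 bp of a native peak, 18 within 500 bp, 38 (36.9%) within 1 kb and 74 (71.8%) within 10 kb. Of the 103, 75 had native peaks within 50 kb on both sides, and the nearest native peak of 80 was itself met by a ZmCENH3 peak. By chromosome they numbered 11, 9, 18, 15 and 50 on chromosomes 1 to 5, with median distances of 1309, 10055, 11357.5, 685 and 1994.5 bp.

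These regions were low, and few of them had a peak of another foreign CENH3. The median of the mean pile-up was 43.5 tags, with quartiles of 32.1 and 57.9, and 94 of the 103 were under 100 tags. Fold enrichment at them had medians of 3.75 and 3.70 in the 2 ZmCENH3 libraries, over control coverage of 10.6 and 11 tags. The ZmCENH3 replicates' summits differed by a median of 28 bp. The CENH3 of Lepidium oleraceum (LoCENH3), the other foreign CENH3 of the series, in the same mutant, had a peak in 8 of them (7.77%), in both of its libraries in 3. It had a peak in 147 (77.4%) of the 190 regions with peaks in all 4 ZmCENH3 and AtCENH3 libraries. Those regions were selected as called in every list. The 157 shared loci among them were higher, with median pile-ups of 155 and 142 tags in ZmCENH3. The 2 shares were not matched for height, so nothing particular to ZmCENH3 is read from them. Since lists hold only called peaks, AtCENH3 or LoCENH3 signal below the cutoff at these places was not detectable here.

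Of the 6 longest regions of ZmCENH3 alone, 5 were low plateaus on chromosome 5, and the other, at HTR12 on chromosome 1, is described below. At 11753969 to 11756413 peaks of 2337 and 2117 bp had pile-ups of 44.6 and 45.4 tags and lay 14291 bp from a native peak. At 11859667 to 11861234 lengths were 1359 and 1519 bp with 46.7 and 52.9 tags, 675 bp from a native peak of 19.0 tags. At 11891373 to 11892773 lengths were 1401 and 939 bp, and the replicates' summits stood 889 bp apart. At 11716634 to 11717769, in the pseudogene AT5G31804, lengths were 698 and 1116 bp, 366 bp from a native peak of 54.0 tags, and at 11901835 to 11902840 they were 941 and 515 bp. The summits of the ZmCENH3 replicates stood 18 bp apart in AT5G31804, 33 bp at 11859667 to 11861234, 126 bp at 11753969 to 11756413 and 379 bp at 11901835 to 11902840.

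Annotated genes were met by 42 of the 103 regions, and protein-coding genes by 3. Of these 3, 2 were at HTR12, which encodes native CENH3, near the left end of chromosome 1. From 142222 to 143693, where the annotation has the end of HTR12 and RCAR1, an abscisic acid receptor gene, ZmCENH3 peaks of 1457 and 1401 bp had pile-ups of 105 and 92.7 tags and fold enrichments of 4.43 and 5.20. From 145500 to 145930, in HTR12 as well, peaks of 431 and 368 bp had 59.4 and 64.1 tags and fold enrichments of 3.78 and 3.61. Control coverage at the 2 regions was 23 and 17 tags and 15 and 17 tags. They were the farthest from any native peak, at 13037172 and 13034935 bp. AtCENH3 had 0 peaks at either gene in both libraries. The labels do not give the promoter of the maize transgene, and whether tags at the 2 regions came from this place or from the transgene was not tested. The other members of the list of CENH3 and kinetochore genes, CENP-C, KNL2, MIS12, NDC80, NUF2, SPC24 and SPC25, had 0 peaks in all 4 libraries. CENP-C and KNL2 bind to or load CENH3, MIS12 links the inner and the outer kinetochore, and NDC80, NUF2, SPC24 and SPC25 form the complex that holds microtubules. The third protein-coding gene was AT4G05612, on chromosome 4 at 2960700 to 2960991.

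The next farthest regions were on chromosomes 2 and 3. On chromosome 2 at 5578487 to 5578828 pile-ups of 41.0 and 49.8 tags stood 878960 bp from a native peak, and at 4936243 to 4936736, in the pseudogene AT2G12320, 39.6 and 39.2 tags stood 236716 bp away. On chromosome 3 the regions at 14129993 to 14130190, in the pseudogene AT3G33197, and at 14145582 to 14145776 had pile-ups of 35.4 and 25.5 tags and of 36.1 and 31.7 tags. They were 303249 and 287663 bp from a native peak, with the ZmCENH3 summits of the 2 replicates 0 and 1 bp apart. In all, 9 of the 103 regions were over 100 kb from a native peak.

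The highest regions of ZmCENH3 alone all lay in 1 place, on chromosome 4. At 3968283 to 3968460 pile-ups were 1146 and 1327 tags, and control coverage was also high there, at 697 tags in both lists, so that fold enrichment was 1.64 and 1.90. LoCENH3 replicate 2 had a peak there as well. At 3970338 to 3970532 pile-ups were 674 and 696 tags at a fold enrichment of 3.53 and 3.65, and at 3973949 to 3974242 they were 546 and 549 tags at 3.18 and 3.20. The regions at 4011044 to 4011276 (468 and 492 tags), 3979130 to 3979305 (439 and 454) and 3977085 to 3977255 (298 and 315) followed. All 6 lay 162 to 685 bp from a native peak, and the ZmCENH3 replicates were close to each other at each.

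These high regions belonged to a stretch of chromosome 4 from 3968283 to 4011276 (42994 bp) in which shared loci were also much higher with maize CENH3. The stretch was chosen after its values were seen, as the span of the 7 regions of ZmCENH3 alone there with more than 200 tags, so its values are given as a description. It held 24 shared loci, whose log2 difference in pile-up per M ran from 0.48 to 2.27 with a median of 2.002, and 21 of the 24 were over 1.5. The 23 shared loci elsewhere on chromosome 4 had a median of 0.50, with 4 over 1.5, and all 133 outside the stretch had a median of 0.70, with 7 over 1.5. Of those 4, the loci starting at 3965590, 3966348 and 3967218 (1.63, 1.99 and 2.02) lay just left of the stretch, so its left edge is not sharp. Control coverage in the stretch was higher for ZmCENH3 by a median of 1.39 on the log2 scale, against 1.196 elsewhere on chromosome 4 and 1.23 over all loci outside it. Median fold enrichment in the stretch was 5.34 and 5.11 in ZmCENH3 and 3.19 and 3.13 in AtCENH3. Over the 133 loci outside, it was 5.63 and 5.90 in ZmCENH3 and 8.13 and 7.26 in AtCENH3. In the stretch both ZmCENH3 peaks were longer than both AtCENH3 peaks at 22 of the 24 loci and shorter at 0. Outside it this held for 51 of the 133 loci, with 38 shorter. Limma called 13 of the 24 longer and 22 higher in relative pile-up, against 17 longer and 35 higher of the 133 outside.

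The lowest differences belonged to a pair of neighbours in the middle of the stretch. At 3992216 to 3992819 and at 3993879 to 3994691 the log2 difference per M was 0.64 and 0.48, close to the rest of chromosome 4. Of the joined regions, 2 lay in the stretch, at 3976043 to 3976726 and at 4005603 to 4006347, where 1 ZmCENH3 peak covered 2 AtCENH3 peaks in each library. In the second the highest pile-up was 2884 and 2897 tags in ZmCENH3 and 749 and 708 in AtCENH3. The variants' mean summits in the stretch differed by a median of 5.25 bp. Single summits, an unlike measure, differed by a median of 2.5 bp in the ZmCENH3 replicates and 6 bp in the AtCENH3 replicates. The part of control coverage in these heights was not tested.

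**Figure D5:**
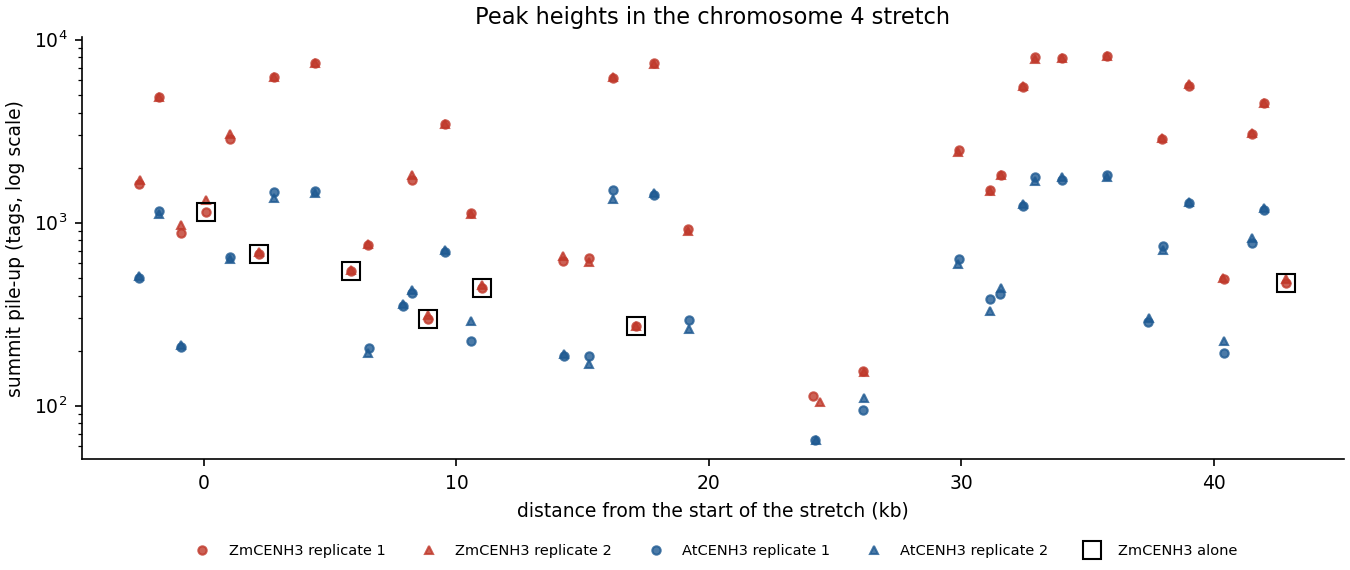
Summit pile-up (y axis, tags, log scale) of every ZmCENH3 and AtCENH3 peak in the chromosome 4 stretch and up to 3 kb beyond it, by distance from the start of the stretch (x axis, kb). Boxes mark the 7 regions of ZmCENH3 alone, at 273 to 1236 tags on average, and ZmCENH3 stands above AtCENH3 at each of the 24 shared loci, by 0.48 to 2.27 on the log2 scale per M.

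Native peaks without a maize counterpart were few and low. The 14 regions called in both AtCENH3 libraries and in neither ZmCENH3 library had a median length of 240 bp, a median pile-up of 21.9 tags and a median distance of 1085.5 bp to a ZmCENH3 peak, with a range of 81 to 58607 bp. They numbered 4, 3, 0, 3 and 4 on chromosomes 1 to 5. The highest, on chromosome 2 at 3617064 to 3617289 in the protein-coding gene AT2G07981, had 937 and 1143 tags. It stood 142 bp from a ZmCENH3 peak of 138819 tags, and its fold enrichment was 2.19 and 2.60. On chromosome 1 the region at 16527863 to 16528181 had 41 and 45.9 tags. Chromosome 4 held 3 others, with 65 and 54.96 tags at 4777221 to 4777395, 45 and 34.8 at 4762942 to 4763173 and 22 and 33.4 at 4027261 to 4027448. LoCENH3 had a peak in 2 of the 14, in both of its libraries in 1.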

How the data were processed

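The deposited lists hold 1 row per peak. The authors ran MACS 2.1.0.20140616 on each library separately, per the file headers, against 1 control per variant, without a fragment model, with tags extended by a fixed 165 bp, duplicates kept, a genome size of 2.7 Gb and a q-value cutoff of 0.05. The aligner BWA and the build TAIR10 come from the submitters' processing notes. For tags with several matches, the handling was not given in the sources used here. The deposited pile-up is a coverage signal at the summit after the larger of ChIP and control was scaled to the smaller. The deposited fold enrichment, a ratio at the summit of ChIP over background, was read as (pile-up + 1)/(background + 1). Control coverage was solved from it as that background. The deposited −log10 q-value served only to filter and rank peaks. Positions and lengths are in bp, 1-based, as the authors deposited them. The depth is the tag total in the headers; counting error of a pile-up is not given, since duplicates were kept.

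Only chromosomes 1 to 5 were used; the 4 libraries have 0 organelle peaks. Peaks overlapped from 1 bp. Log2 lengths and log2 pile-ups, median-centred per library, were fitted at the 157 shared loci with limma 3.58.1 in R 4.3.3, with Benjamini-Hochberg adjustment. Single values were tested by exact permutation, over the 3 pairings of the 4 libraries for values between lists and over libraries for mean length. In the test over pairings each pair of lists was taken in both orders. The remaining steps ran in Python 3.11.15 with pandas 2.3.3, numpy 2.4.6 and matplotlib 3.10.9, and functions were tested on simulated data.

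Named regions were those with the largest differences of each kind: 5 longer and 3 shorter without overlap, 5 summits, 3 higher and 3 lower pile-ups past the threshold, 6 joined, 6 each of the highest, longest and farthest of ZmCENH3 alone and 5 of AtCENH3 alone, with the genes under them and a list of CENH3 and kinetochore genes. Regions and lists were chosen with earlier results of these data known. Gene names came from a RefSeq table of TAIR10.1, taken to number the chromosomes as TAIR10 does; none of its coordinates is given. The LoCENH3 lists were used only for overlap, and the other samples are not analysed here. Alternatives were a −log10 q of 10 or more, equal list lengths, a reciprocal overlap of 50%, each library left out, chromosome 5 left out, the replicate number as a block, peaks closer than the tag extension joined, midpoints, means or medians, lengths in bp, uncentred pile-up, a mean pile-up of 50 or more, and summit distances. Leaving out the chromosome 4 stretch and a variance trend in limma were added after seeing the data.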

Additional observations from a re-analysis of the deposited data

How the results depend on the processing

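Pile-up calls, ZmCENH3 over AtCENH3, depended on scaling: 112 higher and 6 lower without centring, against 57 and 39. Without chromosome 5, 23 were lower. Without the chromosome 4 stretch 22 loci changed in length, 15 of them longer. Against the library medians of the loci left, 18 had a higher and 53 a lower pile-up. Leaving out 1 library gave 0 to 39 length calls, 0 to 36 longer and 0 to 3 shorter, and 66 to 92 pile-up calls, 32 to 42 higher and 32 to 55 lower. The excess of unmatched AtCENH3 peaks turned positive with equal lists (6.86 points), a reciprocal overlap of 50% (10.4) and without chromosome 5 (1.497), and ran from -3.34 to 5.46 with 1 library left out. The summit excess was -0.5 bp with a reciprocal overlap of 50% and ran from -1.0 to 1.5 bp with 1 library left out. The cause was not tested. Other comparisons kept their direction in every alternative run: leaving out 1 library gave 25.7 to 34.1 points for unmatched ZmCENH3 peaks, 0.67 to 2.12 for their log2 distance, 1.49 to 3.01 points joined, -1.88 to -0.44 points split and 0.13 to 0.21 for log2 length. With 1 library in an arm, the lone library is assumed to vary like the pair of the other variant. A reciprocal overlap of 50% gives no value for joining or splitting, since 1 peak then hardly meets 2.

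Replicates of the same number did not deviate together (correlation of deviations at the shared loci -0.049 for pile-up and -0.067 for length). This cannot show whether libraries of the same number shared a culture or a batch. With the replicate number as a block, limma called 0 loci for length, 0 longer and 0 shorter, and 98 for pile-up, 59 higher and 39 lower. Comparing only libraries of the same number gave 1.0 bp for summits, 1.96 points joined, -1.30 points split, 28.9 and -0.82 points unmatched for ZmCENH3 and AtCENH3, and 1.39 for log2 distance.

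Signal under the authors' cutoff is not in the lists, and with lists of equal length the excess of unmatched ZmCENH3 peaks was 12.9 points and that of their log2 distance 0.0064.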
